A study of Mus musculus with 4 samples.

Results

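The genes described here encode the secreted and membrane-bound matrix proteases of the matrix metalloproteinase (MMP) and ADAMTS families, the ADAMTS-like proteins, and the tissue inhibitors of metalloproteinases (TIMPs). They were taken from the array table by symbol: Mmp followed by a digit, Adamts, or *Timp1* to *Timp4*, on probe sets annotated with exactly 1 symbol. Where a gene had several probe sets, the one with the highest mean over the 4 arrays stood for it. This gave 49 of 22180 genes, namely 22 MMPs, 18 ADAMTS proteases, 5 ADAMTS-like genes and 4 TIMPs. *Adamts2* and *Mmp15* have no probe set of their own and were not analysed here. Of the 49 genes, 34 were at or above the 30th percentile of mean signal over all genes (log2 3.63) and 15 below it, and all 49 were kept.

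The study asked which transcripts change in glomeruli when podocytes lose cyclin G associated kinase (*Gak*), a kinase of clathrin-mediated endocytosis. *Gak*-KO mice carried floxed *Gak* alleles and Cre recombinase under the podocin promoter (Pod-Cre), so deletion is limited to podocytes, and the control mice were Cre-negative littermates. The line also carried a floxed diphtheria toxin receptor gene (Rosa-Dtr), and all mice were C57BL/6. Glomeruli of 3 mice, aged 3 weeks in the labels and older in one legend, were pooled for each array, and each group had 2 arrays numbered 1 and 2. Dynabeads perfused through the kidney and a Percoll gradient separated the glomeruli from the cortex.

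Values are log2 signals, so a difference of 1 is a doubling. *Gak*-KO 1 was set against control 1 (pair 1) and *Gak*-KO 2 against control 2 (pair 2). The Z-ratio is the within-pair difference of Z scores in units of its SD over all genes. Genes were called higher or lower when both pairs passed the limit set in the study, just under 2 SD, on the same side. That limit lay at a log2 change of about 0.594 for pair 1 and 0.479 for pair 2. The linear model of limma, blocked by pair, gave each mean change and its standard error (SE). With 2 arrays per group, an exact permutation test that ignores the pairs could not give a two-sided p below 0.333. Swapping labels only within pairs allows fewer arrangements, so its lowest possible p is higher still. The replicates are pools of mice. The SE draws in part on the variance of all genes, so a small SE is not the measured spread of that gene alone. *Col4a6*, for example, had a change of 0.00 in both pairs and an SE of 0.0957.

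Array medians lay at 4.32 and 4.14 for *Gak*-KO 1 and 2, against 4.28 and 4.13 for control 1 and 2. Podocalyxin of podocytes (*Podxl*, 9.99 and 11.13 in *Gak*-KO against 10.13 and 10.84 in control) and *Pecam1* of endothelium (9.26 and 9.88 in *Gak*-KO against 9.11 and 9.49 in control) were present, and so was *Slc34a1* of the proximal tubule (12.98 and 12.11 in *Gak*-KO against 12.98 and 12.40 in control). *Gak* itself read 8.64 and 8.39 in *Gak*-KO glomeruli against 8.25 and 8.35 in control glomeruli. Both *Gak*-KO arrays were thus above both control arrays, so *Gak* does not check the group labels. Other glomerular cells keep the gene, and why the signal was not lower in *Gak*-KO was not tested. *Xist*, which is made from the inactive X chromosome, read 9.61 and 9.21 in *Gak*-KO against 9.69 and 8.55 in control. Its higher level on both arrays labelled male goes against the sex labels, so pairs are named by array number only, and sex label and array number cannot be told apart. *Uty*, a Y chromosome gene, read 5.59 and 5.57 in *Gak*-KO against 4.65 and 6.00 in control. Within pairs 1 and 2, *Uty* differed by 0.94 and -0.43, and *Xist* by -0.09 and 0.66. Whether the sex make-up of the pools differed between the groups was not tested.

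MMPs are zinc endopeptidases made as latent proenzymes that together cleave collagens, laminins, fibronectin and proteoglycans. ADAMTS proteases are secreted, bear thrombospondin repeats, and include cleavers of versican and aggrecan, procollagen processing enzymes and the protease of von Willebrand factor, while ADAMTS-like proteins lack the protease domain. TIMPs block the active site of these enzymes, and the balance between both sides is best known in the kidney for the turnover of mesangial matrix and of the glomerular basement membrane.

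Among the 49 genes, 1 was called higher (2.04%), *Adamtsl4*, and 0 were called lower. Over all genes, 113 were called higher (0.509%) and 52 lower (0.234%). With 1 gene called, the share is not read as a difference from that background, and *Adamtsl4* also stands in the gene list that the study drew from these same samples, so its call is not independent evidence. In pair 1 alone, 5 of the 49 genes were beyond the limit upward (10.2%, against 2.89% of all genes) and 0 downward (against 2.39%). In pair 2 alone, 4 were beyond it upward (8.16%, against 3.01%) and 0 downward (against 2.96%). The remaining 41 genes were inside the limit in both pairs. The genes beyond the limit differed between pairs apart from *Adamtsl4*. They were *Adamts1*, *Adamts4*, *Adamts12* and *Mmp2* in pair 1, and *Adamts8*, *Mmp14* and *Timp2* in pair 2.

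*Gak*-KO was above control in both pairs for 19 of the 49 genes (38.8%, against 22.3% of all genes) and below in both for 7 (14.3%, against 24.3%). Both *Gak*-KO arrays lay above both control arrays for 10 genes (20.4%, against 8.8%) and below both for 1 (2.04%, against 8.22%). No test was made of these shares. The median change of the 49 genes was 0.11 in pair 1 and 0.00 in pair 2, beside 0.00 in both pairs over all genes. In limma with Benjamini-Hochberg adjustment over all genes, 0 of the 49 and 0% of all genes passed an adjusted p of 0.05, and the smallest adjusted p was 0.833. At an unadjusted p of 0.05, the same limma fit held 8 of the 49 genes and 1204 of all genes.

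**Figure D1:**
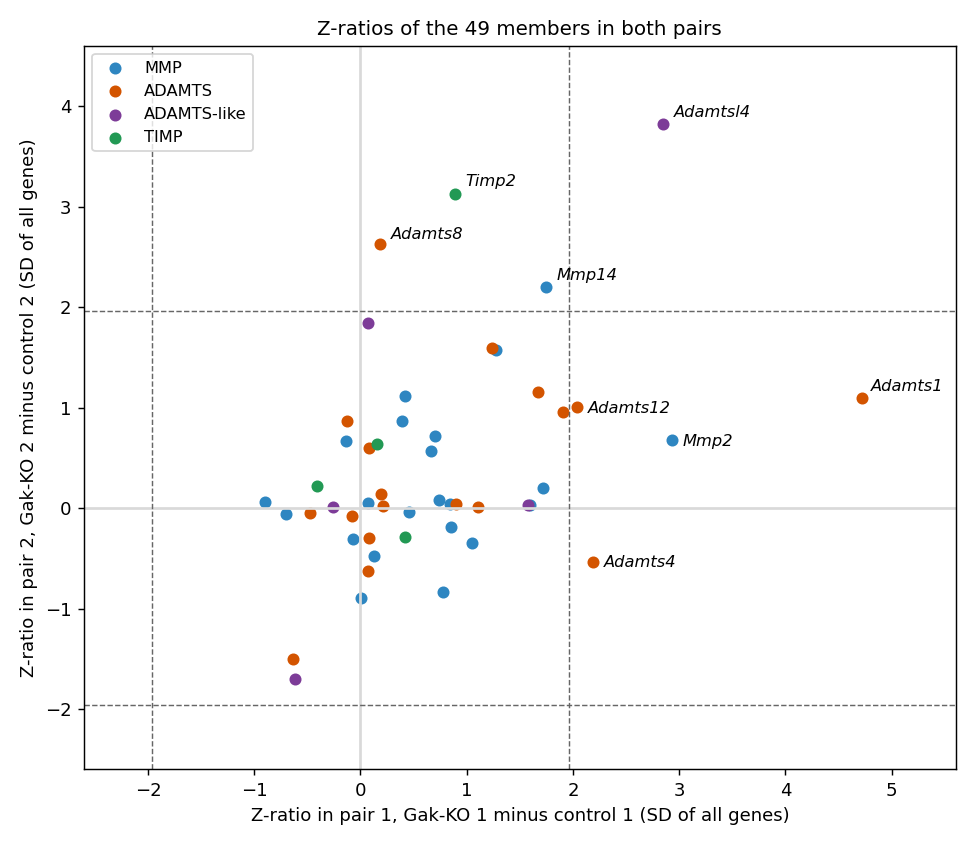
Each point is 1 of the 49 genes, with its Z-ratio in pair 1 on the horizontal axis and in pair 2 on the vertical axis, both in SD of all genes, and the dashed lines mark the limit of just under 2 SD. *Adamtsl4* is the single point past the upper limit on both axes (2.84 and 3.82), and no point is past a lower limit.

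The spread between the numbered arrays was as large as most of the changes. Control 1 and control 2 differed by a median of 0.296 over the 49 genes, whereas the median size of the change was 0.19 in pair 1 and 0.138 in pair 2. For 32 of the 49 genes the mean difference between array numbers exceeded the mean change. Some values were exactly equal within a pair, in pair 1 for 2 of the 49 genes (3.97% of all genes) and in pair 2 for 9 (10.4% of all genes), and such a gene has a change of 0.00 in that pair. Between arrays of different number, 0 values were exactly equal.

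To place the single call, *Adamtsl4* was examined first. It encodes a secreted ADAMTS-like glycoprotein that binds fibrillin microfibrils, and in humans its loss displaces the lens. Its log2 signal was 6.01 on *Gak*-KO 1 and 6.21 on *Gak*-KO 2, against 5.15 on control 1 and 5.27 on control 2. Both *Gak*-KO arrays were above both control arrays, with a gap between the groups wider than the spread within either. Pair 1 differed by 0.86 and pair 2 by 0.93, a mean of 0.90 (SE 0.10), or 1.86-fold, with an unadjusted p of 0.00202 and an adjusted p of 0.833 in limma. Its Z-ratios of 2.84 and 3.82 both passed the limit. As the only gene called, it necessarily had the highest smaller Z-ratio of a pair among the 49 genes. Next by smaller Z-ratio were *Mmp14* at 1.75, *Mmp27* at 1.28 and *Adamts9* at 1.24. In pooled glomeruli, a change in the number of cells of a type and a change in RNA per cell cannot be told apart, whichever way a gene differs.

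Of the 49 genes, 34 have a promoter window in the RefSeq table (build GRCm38.p6), from 250 bases before the transcription start to 50 bases after it. *Adamtsl4* is shown here as the called gene, with *Mmp14*, the next by smaller Z-ratio, and *Adamts1*, whose pair 1 change was the largest of the 49. Each stretch runs 5′ to 3′ from 100 bases before the start to 20 bases after it, and capitals mark the letters TATAAA.
Adamtsl4 (chr3:95687898-95688017, minus strand): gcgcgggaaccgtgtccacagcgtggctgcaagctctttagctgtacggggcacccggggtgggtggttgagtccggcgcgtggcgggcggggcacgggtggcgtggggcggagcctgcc
Mmp14 (chr14:54431498-54431617, plus strand): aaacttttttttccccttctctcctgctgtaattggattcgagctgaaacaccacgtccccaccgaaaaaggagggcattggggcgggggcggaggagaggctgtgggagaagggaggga
Adamts1 (chr16:85803094-85803213, minus strand): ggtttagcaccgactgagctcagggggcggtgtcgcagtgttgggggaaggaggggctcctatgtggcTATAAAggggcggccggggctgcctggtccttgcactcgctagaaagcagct
The motifs searched in the full windows were the AP-1 letters TGANTCA, which read alike on both strands, TATAAA on the sense strand, and the TEAD letters GGAATG on both strands. In the window of *Adamts1*, TATAAA starts 32 bases before the start. The windows of *Adamtsl4* and *Mmp14* hold none of the letters searched, which says only that these letters are not in these windows.

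None of the other ADAMTS-like genes was called. *Adamtsl2*, which in humans is mutated in a short-stature disorder of microfibrils, read 6.01 and 5.91 in *Gak*-KO against 6.20 and 6.32 in control. It was the 1 gene of the 49 with both *Gak*-KO arrays below both control arrays, with changes of -0.18 and -0.41 (mean -0.30, SE 0.12) that stayed inside the limit. *Adamtsl1* read 3.84 and 4.08 in *Gak*-KO against 3.38 and 4.08 in control, and *Adamtsl3* read 3.47 and 4.39 in *Gak*-KO against 3.47 and 3.95 in control. Each of these therefore differed in 1 pair and was exactly equal in the other. *Adamtsl5*, at 5.08 and 5.11 in *Gak*-KO against 5.17 and 5.11 in control, had a mean change of -0.04 (SE 0.10).

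**Figure D2:**
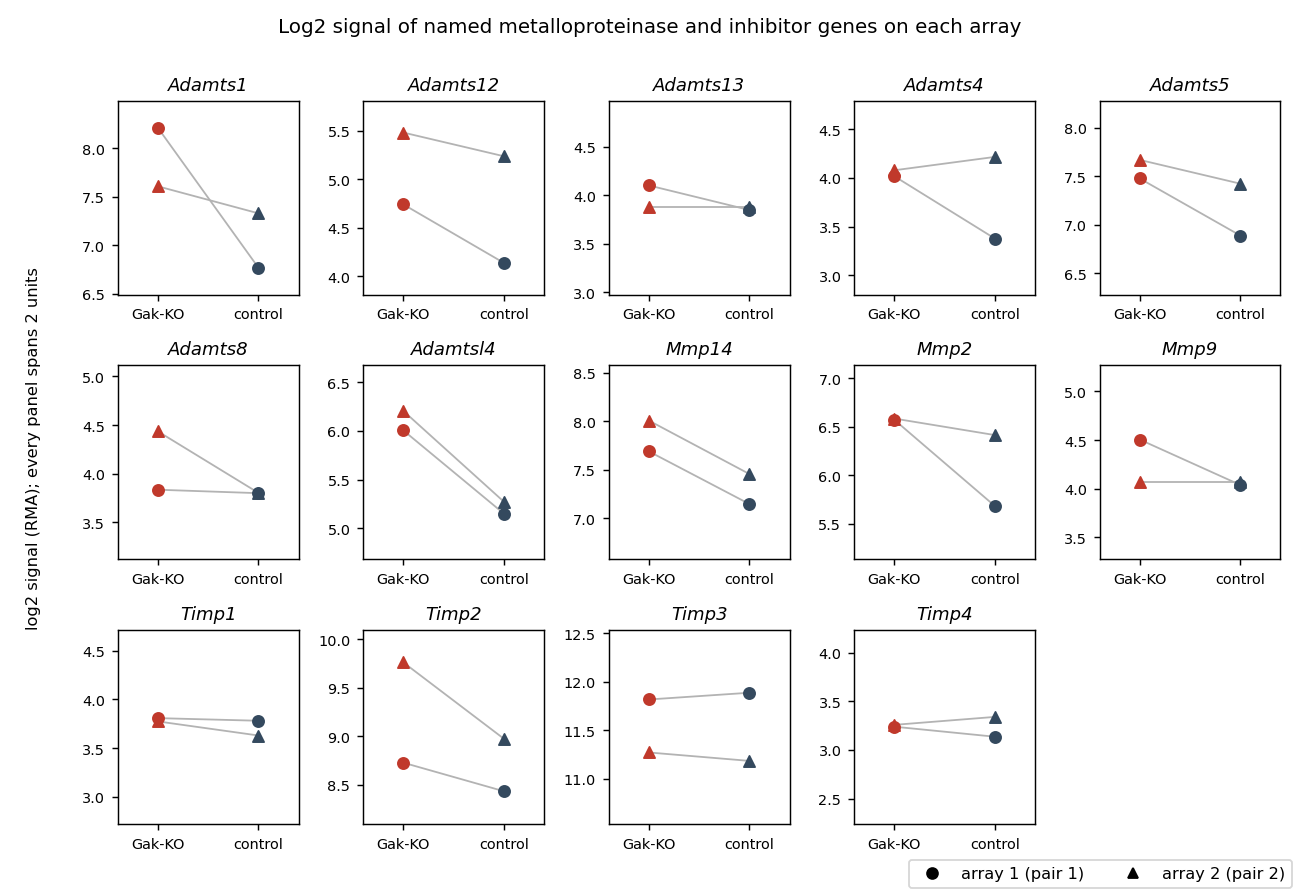
Log2 signal (vertical axis, 2 units in each panel) of the named genes in *Gak*-KO (left) and control (right), with circles for arrays 1, triangles for arrays 2 and lines joining a pair. *Adamtsl4* and *Mmp14* show near-parallel lines, whereas *Adamts1*, *Mmp2* and *Timp2* have 1 steep and 1 shallow line and *Adamts4* has lines of opposite slope.

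*Mmp14*, *Timp2* and *Mmp2* are known to work together at the cell surface. *Mmp14* is a membrane-anchored collagenase, *Timp2* bridges it to latent *Mmp2*, and another *Mmp14* molecule then releases active *Mmp2*, the gelatinase that cleaves denatured and basement membrane collagen. *Mmp14* read 7.69 and 8.01 in *Gak*-KO glomeruli against 7.15 and 7.46 in control glomeruli. The groups did not overlap, and the change was nearly equal in both pairs, 0.54 and 0.55 (mean 0.55, SE 0.10, 1.46-fold). Its Z-ratio was 1.75 in pair 1, under the limit, and 2.20 in pair 2, over it, so *Mmp14* was not called.

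*Mmp2* read 6.57 and 6.58 in *Gak*-KO glomeruli against 5.68 and 6.41 in control glomeruli. Both *Gak*-KO arrays were higher, but control 2 stood close to them and control 1 well below, giving changes of 0.89 and 0.17 (mean 0.53, SE 0.22) and Z-ratios of 2.93 and 0.67. Without control 1 the mean change of *Mmp2* was 0.16, in a fit that compares arrays of different number. *Timp2* showed the opposite order of pairs, with 8.73 and 9.76 in *Gak*-KO against 8.44 and 8.98 in control. Its groups overlapped, since control 2 was above *Gak*-KO 1, and the changes were 0.29 and 0.79 (mean 0.54, SE 0.17, Z-ratios 0.89 and 3.13). In such fits the mean change of *Timp2* was 0.024 without *Gak*-KO 2 and 1.06 without *Gak*-KO 1. All of the trio were thus above control in both pairs, and none was past the limit in both.

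The other gelatinase, *Mmp9*, read 4.50 and 4.07 in *Gak*-KO glomeruli against 4.04 and 4.07 in control glomeruli. The pairs gave 0.47 and 0.00, with exactly equal values in pair 2 (mean 0.23, SE 0.16). The remaining membrane-type MMPs were inside the limit in both pairs. *Mmp17*, which has a lipid anchor, had differences of 0.23 and -0.21, and the likewise lipid-anchored *Mmp25* had -0.02 and -0.23. *Mmp24*, a transmembrane enzyme, had -0.22 and -0.02, and *Mmp16*, another transmembrane enzyme, had values equal to 2 decimals in both pairs.

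The TIMPs apart from *Timp2* were inside the limit in both pairs. *Timp3*, the matrix-bound inhibitor that also blocks several ADAMTS and ADAM proteases, read 11.82 and 11.27 in *Gak*-KO glomeruli against 11.89 and 11.18 in control glomeruli. The mean change of *Timp3* was 0.01 (SE 0.11) and turned negative under quantile normalization or median centring, and arrays 1 were higher than arrays 2 in both groups. *Timp1*, a secreted inhibitor often raised in injured kidney, read 3.81 and 3.77 in *Gak*-KO against 3.78 and 3.63 in control, with a mean change of 0.09 (SE 0.10). *Timp4* read 3.24 and 3.26 in *Gak*-KO against 3.14 and 3.34 in control, with a mean change of 0.01 (SE 0.11) that turned negative under median centring. The median over the 4 inhibitors was 0.07 in pair 1 and 0.12 in pair 2.

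Of the ADAMTS proteases, those that cleave versican, aggrecan and related proteoglycans had the higher medians. The median of these 7 hyalectanases was 0.39 in pair 1 and 0.24 in pair 2. Of the 7, 4 were above control in both pairs, against 22.3% of all genes, and none was called. The other 11 ADAMTS proteases had medians of 0.01 and 0.00. This grouping was made with earlier results of these data known, and the difference between the groups was not tested.

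*Adamts1*, a versican protease whose loss in mice disturbs the urinary tract, read 8.21 and 7.61 in *Gak*-KO glomeruli against 6.77 and 7.33 in control glomeruli. Both *Gak*-KO arrays were above both control arrays, yet the changes were 1.44 and 0.28 (mean 0.86, SE 0.34). As folds, these were 2.71 and 1.21, with Z-ratios of 4.72 and 1.09. Control 1 was the lowest of the 4 values and *Gak*-KO 1 the highest.

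*Adamts5*, an aggrecanase whose gene lies beside *Adamts1* on chromosome 16 with 0 protein-coding genes between them in RefSeq (GRCm38.p6), read 7.48 and 7.67 in *Gak*-KO against 6.89 and 7.42 in control. Its groups did not overlap, and its changes of 0.59 and 0.24 (mean 0.42, SE 0.13, Z-ratios 1.90 and 0.95) were also larger in pair 1. *Adamts4*, the other classical aggrecanase, read 4.02 and 4.08 in *Gak*-KO against 3.38 and 4.22 in control. Control 1 was the lowest and control 2 the highest of these values, and the changes had opposite signs, 0.64 and -0.14 (mean 0.25, SE 0.24). *Adamts9*, another versican protease, read 7.57 and 7.31 in *Gak*-KO against 7.18 and 6.91 in control, with no overlap and changes of 0.39 and 0.40 (mean 0.39, SE 0.10).

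*Adamts8*, which can cleave aggrecan, read 3.83 and 4.43 in *Gak*-KO glomeruli against 3.80 and 3.80 in control glomeruli. Only *Gak*-KO 2 stood apart, with changes of 0.04 and 0.63 (mean 0.33, SE 0.19, Z-ratios 0.18 and 2.63). A second probe set of *Adamts8* read 3.86 and 3.32 in *Gak*-KO against 3.80 and 3.16 in control, with changes of 0.06 and 0.16. *Adamts15*, the gene next to *Adamts8* on chromosome 9, read 6.12 and 4.82 in *Gak*-KO against 5.79 and 4.82 in control, and *Adamts20* read 3.50 and 3.37 in *Gak*-KO against 3.50 and 3.53 in control.

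Among the remaining ADAMTS proteases, *Adamts12*, which cleaves cartilage oligomeric matrix protein, read 4.74 and 5.48 in *Gak*-KO against 4.14 and 5.24 in control. Arrays 2 were higher in both groups, the groups overlapped, and the changes were 0.60 and 0.24 (mean 0.42, SE 0.14, Z-ratio 2.04 in pair 1). *Adamts6*, a relative of the microfibril-binding *Adamts10*, read 6.40 and 5.92 in *Gak*-KO against 5.89 and 5.64 in control, with no overlap and changes of 0.51 and 0.28 (mean 0.40, SE 0.11). *Adamts13*, the protease that trims von Willebrand factor, read 4.10 and 3.88 in *Gak*-KO against 3.85 and 3.88 in control (mean change 0.13, SE 0.12). *Adamts17*, linked in humans to a microfibril disorder, was lower in both pairs, at 5.0 and 4.46 in *Gak*-KO against 5.20 and 4.84 in control (mean change -0.28, SE 0.11). The procollagen processing enzymes *Adamts3* and *Adamts14* had mean changes of 0.03 each. *Adamts7*, *Adamts10*, *Adamts16*, *Adamts18* and *Adamts19*, all inside the limit in both pairs, had mean changes of 0.08, 0.09, -0.01, -0.04 and -0.09. *Adamts6*, *Adamts9*, *Adamts17* and *Adamtsl2* were singled out after their values were seen.

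**Figure D3:**
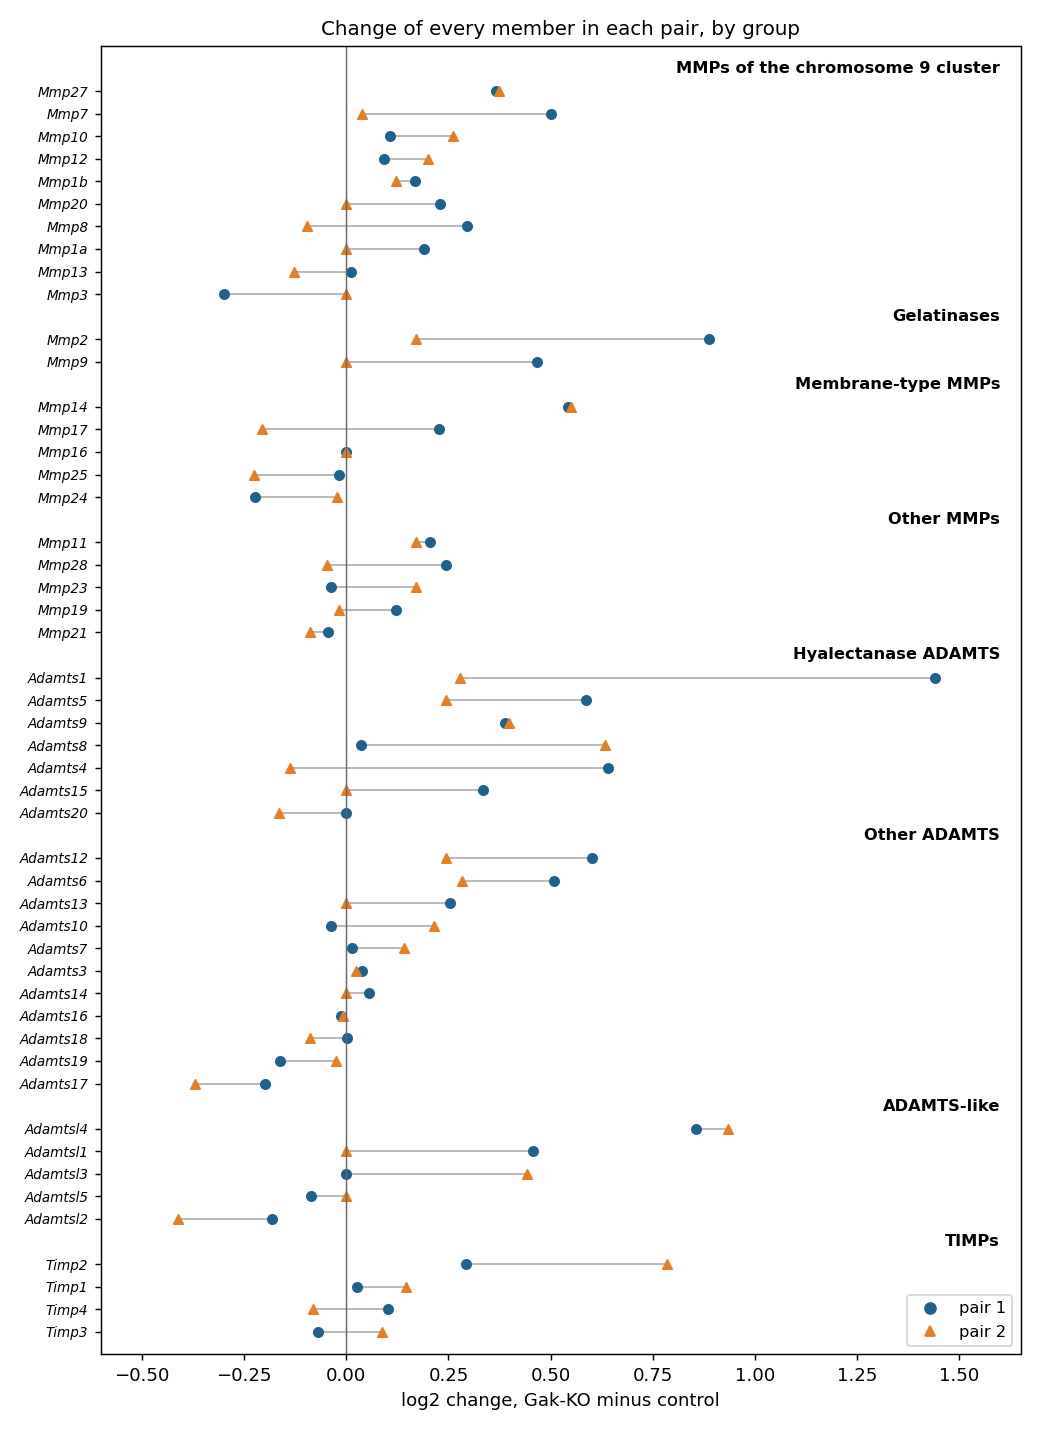
Log2 change of each of the 49 genes (*Gak*-KO minus control, horizontal axis) in pair 1 (circles) and pair 2 (triangles), with genes on the vertical axis by family group and ordered by mean change. The pair 1 change of *Adamts1* (1.44) is the farthest from 0, *Adamtsl4* and *Mmp14* have both symbols close together on the right, and most other genes lie near 0 in at least 1 pair.

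A run of 10 MMP genes stands side by side on chromosome 9 with no other protein-coding gene among them, in the order *Mmp13*, *Mmp12*, *Mmp1b*, *Mmp3*, *Mmp1a*, *Mmp10*, *Mmp8*, *Mmp27*, *Mmp20* and *Mmp7*. They include the secreted collagenases (*Mmp8*, *Mmp13* and the mouse relatives of human interstitial collagenase, *Mmp1a* and *Mmp1b*), the stromelysins *Mmp3* and *Mmp10*, macrophage elastase (*Mmp12*), enamelysin (*Mmp20*) and matrilysin (*Mmp7*). Of these 10 genes, 8 were below the 30th percentile of mean signal, and none was beyond the limit in either pair. The median change was 0.18 in pair 1 and 0.02 in pair 2. No detection calls were used here, so a low signal cannot be told from no expression.

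*Mmp27* had the same change in both pairs, at 3.99 and 3.78 in *Gak*-KO glomeruli against 3.63 and 3.41 in control glomeruli (0.37 in each pair, SE 0.10). *Mmp7* read 4.23 and 3.71 in *Gak*-KO against 3.73 and 3.67 in control, so *Gak*-KO 1 stood apart from the other arrays. *Mmp3* read 2.80 and 3.09 in *Gak*-KO against 3.10 and 3.09 in control, the lowest pair 1 change of the 49 genes at -0.30. The mean changes of the other 7 clustered genes ran from -0.06 for *Mmp13* to 0.18 for *Mmp10*. *Mmp27*, *Mmp7* and *Mmp3* were singled out after their values were seen.

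Although their signals were low, the clustered genes share a feature that the choice of genes did not use. AP-1, the dimer of *Fos* and *Jun* proteins, is the textbook activator of collagenase and stromelysin genes. The AP-1 letters TGANTCA occur in the windows of 8 of the 10 clustered genes, all but *Mmp8* and *Mmp27*, and in 0 of the 24 other family genes with a window. By window, 8 of the 37 family windows hold them, against 7.81% of all 32851 windows of this length. *Mmp7* and *Mmp12* each have a further window, from another annotated start, without these letters. The matches begin 35 to 95 bases before the start, and 6 of the 8 genes have TGAGTCA. Genes of the cluster with a match and a single start are shown to compare the match and its surroundings, with capitals marking the AP-1 letters and TATAAA.
Mmp13 (chr9:7272414-7272533, plus strand): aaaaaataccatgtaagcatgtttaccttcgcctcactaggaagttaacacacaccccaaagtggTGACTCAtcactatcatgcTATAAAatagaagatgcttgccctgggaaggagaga
Mmp1b (chr9:7388007-7388126, minus strand): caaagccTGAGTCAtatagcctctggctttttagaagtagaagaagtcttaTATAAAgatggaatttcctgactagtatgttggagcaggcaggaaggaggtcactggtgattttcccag
Mmp3 (chr9:7445722-7445841, plus strand): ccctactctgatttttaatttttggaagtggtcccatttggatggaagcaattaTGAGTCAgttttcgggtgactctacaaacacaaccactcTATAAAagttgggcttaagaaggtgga
Mmp1a (chr9:7464041-7464160, plus strand): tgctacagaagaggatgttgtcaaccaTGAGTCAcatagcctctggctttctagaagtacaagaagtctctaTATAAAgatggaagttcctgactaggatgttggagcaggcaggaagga
Mmp10 (chr9:7502242-7502361, plus strand): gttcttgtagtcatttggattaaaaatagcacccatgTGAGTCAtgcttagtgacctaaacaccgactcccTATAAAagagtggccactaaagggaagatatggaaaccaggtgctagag
Mmp20 (chr9:7628131-7628250, plus strand): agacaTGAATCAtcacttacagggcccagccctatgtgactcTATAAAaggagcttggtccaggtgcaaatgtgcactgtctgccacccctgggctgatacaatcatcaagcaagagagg
*Mmp13* has the variant TGACTCA and *Mmp20* the variant TGAATCA. The letters TATAAA occur in 11 of the 34 family genes with a window, the same 8 clustered genes and *Adamts1*, *Adamtsl2* and *Mmp21*. By window, 11 of the 37 family windows hold them, against 8.32% of all windows. The TEAD letters occur in 2 family genes, *Adamts13* and *Timp1*, and in 2 of the 37 family windows, against 14.7% of all windows. GC content was 37.7% to 52.0% in windows of the clustered genes and 53.3% to 80.0% in those of the other family genes. A match is a stretch of letters and not a measured binding site, and the clustered genes are close relatives, so their windows are not independent of one another.

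**Figure D4:**
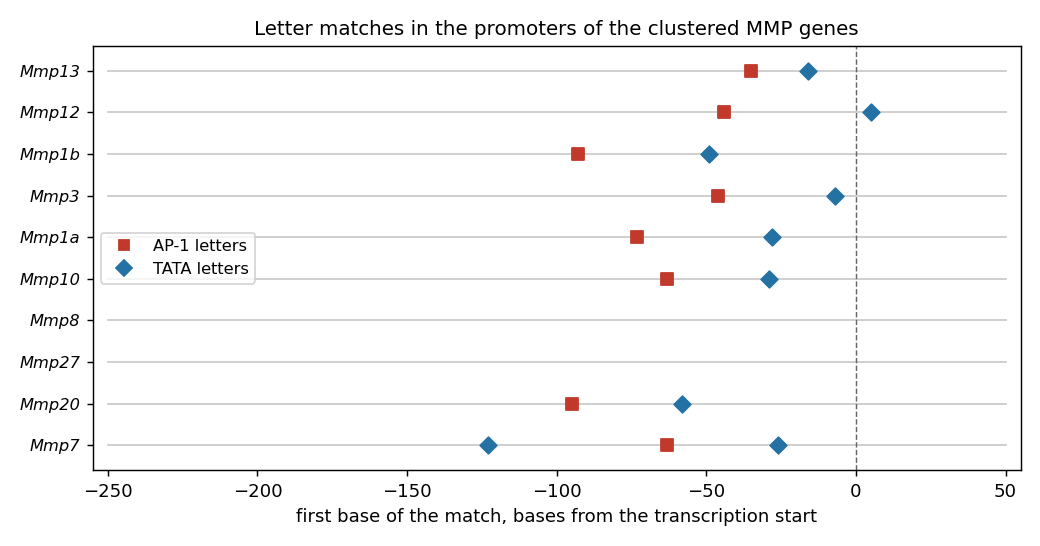
Position of the first base of each match (squares, AP-1 letters; diamonds, TATAAA) in bases from the transcription start, for the 10 clustered genes in chromosome order. Each of 8 genes has AP-1 letters 35 to 95 bases before the start and TATAAA downstream of them, *Mmp7* has a further TATAAA upstream, and *Mmp8* and *Mmp27* have neither. In *Mmp12*, TATAAA begins at base 5 after the start. The windows of a further annotated start of *Mmp7* and of *Mmp12* hold neither.

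The remaining MMPs were inside the limit in both pairs. *Mmp11* (stromelysin-3), at 5.21 and 4.70 in *Gak*-KO against 5.01 and 4.53 in control, had differences of 0.21 and 0.17. *Mmp28* read 4.77 and 5.63 in *Gak*-KO against 4.52 and 5.67 in control, and *Mmp23* read 6.28 and 6.94 in *Gak*-KO against 6.31 and 6.77 in control. *Mmp19* and *Mmp21* had mean changes of 0.05 and -0.07.

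To set the proteases beside their surroundings, related gene lists were measured in the same way. Of 24 measured genes for other inhibitors, activators and clearance of MMPs, 1 was called higher and 1 lower, with medians of 0.09 and -0.01. The shares over all genes were 0.509% and 0.234%, and 1 call each way is not read as a difference from them. The gene called higher was *Lcn2*, a lipocalin that in humans forms a complex with MMP9, at 9.20 and 8.24 in *Gak*-KO glomeruli against 6.82 and 7.39 in control glomeruli (mean change 1.62, SE 0.44). The gene called lower was *Tfpi2*, a serine protease inhibitor of the matrix, at 7.16 and 5.41 in *Gak*-KO against 7.78 and 5.94 in control (mean change -0.58, SE 0.10). *Lcn2* had groups that did not overlap, whereas those of *Tfpi2* overlapped because arrays 2 were lower in both groups. *Lcn2* also stands in the gene list that the study drew from these same samples, so its call is not independent evidence. *Reck*, a membrane-anchored inhibitor of several MMPs, read 6.14 and 6.62 in *Gak*-KO against 5.89 and 6.21 in control (mean change 0.33, SE 0.11).

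Among substrates, 2 of 18 measured genes of interstitial matrix, proteoglycans and microfibrils were called higher and 0 lower, with medians of 0.23 and 0.09. The shares over all genes were 0.509% and 0.234%, and 2 calls are not read as a difference from them. *Fn1*, the fibronectin gene, read 7.39 and 7.09 in *Gak*-KO glomeruli against 5.91 and 6.44 in control glomeruli (mean change 1.06, SE 0.25). *Bgn*, encoding the small proteoglycan biglycan, read 10.77 and 10.52 in *Gak*-KO against 9.76 and 9.88 in control (mean change 0.82, SE 0.14). Both genes were higher on each *Gak*-KO array than on either control array. *Fn1* also stands in the gene list that the study drew from these same samples, so its call is not independent evidence. Of 17 basement membrane genes, 0 were called, with medians of 0.18 and 0.12. *Nid1* (nidogen) came nearest, at 9.28 and 9.49 in *Gak*-KO against 8.62 and 9.04 in control, with Z-ratios of 2.08 and 1.76.

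Of 16 measured AP-1, ETS, RUNX and NF-kB factors, 0 were called, with medians of 0.43 and 0.08. In both pairs, 8 were above control (against 22.3% of all genes) and 2 below (against 24.3%). Genes of AP-1 proteins had values of either sign. *Fos* read 6.36 and 6.93 in *Gak*-KO glomeruli against 6.93 and 7.34 in control glomeruli (changes of -0.57 and -0.42), while *Jun* read 9.28 and 9.39 in *Gak*-KO against 8.74 and 9.14 in control (0.54 and 0.25). *Fosl2* read 7.72 and 7.94 in *Gak*-KO against 7.23 and 7.25 in control (0.49 and 0.68). *Fosb* read 5.47 and 5.73 in *Gak*-KO against 5.80 and 6.30 in control (-0.33 and -0.57). The changes were 0.00 and 0.07 for *Junb*, and -0.10 and 0.13 for *Jund*. Of 16 ADAM proteases and iRhoms and 6 astacin metalloproteinases, 0 were called, with medians of 0.05 and 0.09 for ADAM genes and -0.04 and -0.09 for astacins. *Reck*, *Nid1*, *Fos*, *Jun*, *Fosl2*, *Fosb*, *Junb* and *Jund* were singled out after their values were seen.

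**Figure D5:**
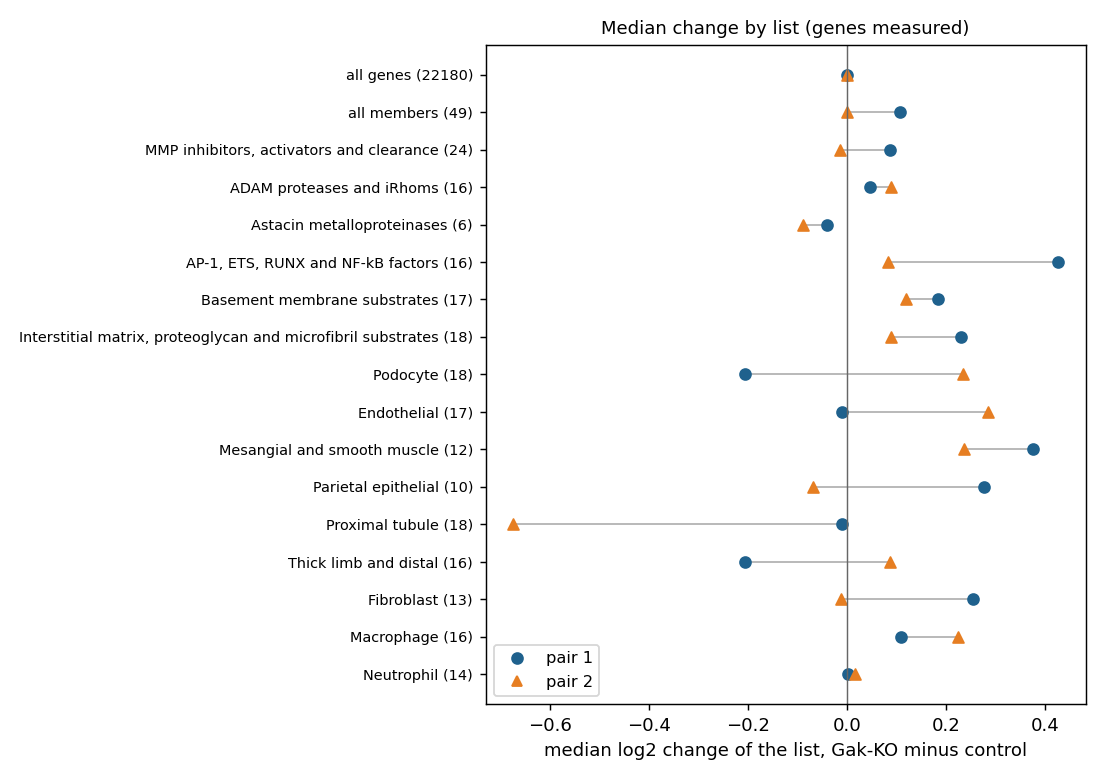
Median log2 change of each gene list (*Gak*-KO minus control, horizontal axis) in pair 1 (circles) and pair 2 (triangles), with the number of genes measured in brackets. The 49 family genes lie at 0.11 and 0.00, the transcription factor list reaches 0.43 in pair 1, and proximal tubule markers lie at -0.68 in pair 2.

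Markers of the cells in the preparation differed within pairs as well. Of 12 measured mesangial and smooth muscle markers, 2 were called higher (*Tagln* and *Mcam*), against 0.509% of all genes. Calls were few in this and the other marker lists, so their shares are not read as differences from all genes. In both pairs, 7 of the 12 were above control (against 22.3% of all genes) and 2 below (against 24.3%), *Notch3* and *Pdgfrb*. The mean log2 signal of the list was 7.55 on both *Gak*-KO arrays against 7.16 and 7.29 on the control arrays. The mean of 13 fibroblast markers was 5.54 and 5.50 in *Gak*-KO against 5.29 and 5.51 in control. The mean of 18 podocyte markers was 7.34 and 8.54 in *Gak*-KO against 7.53 and 8.32 in control, and that of 17 endothelial markers was 8.48 and 9.17 in *Gak*-KO against 8.56 and 8.90 in control. In both pairs, 3 of the 18 podocyte markers were above control and 4 below. Of the 17 endothelial markers, 7 were above in both pairs and 0 below. Macrophage markers had 2 of 16 called higher (*Cd68* and *Mpeg1*), against 0.509% of all genes. The means of the 16 were 4.58 and 4.91 in *Gak*-KO against 4.45 and 4.64 in control. Of these 16, 8 were above control in both pairs (against 22.3% of all genes). Another 2 were below in both (against 24.3%), *Adgre1* and *Aif1*. Of 14 neutrophil markers, *Lcn2* alone was called, and *S100a8*, an abundant neutrophil transcript, read 2.87 and 2.47 in *Gak*-KO against 2.90 and 2.71 in control. Proximal tubule markers had 3 of 18 called lower (*Kap*, *Hao2* and *Ttc36*), against 0.234% of all genes. The means of the 18 were 10.75 and 9.44 in *Gak*-KO against 10.92 and 10.13 in control. In both pairs, 0 of the 18 were above control (against 22.3% of all genes) and 11 below (against 24.3%). Of 10 parietal epithelial markers 0 were called, and of 16 markers of thick limb and distal nephron 1 was called higher (*Trpv5*) and 1 lower (*Slc12a1*). Above control in both pairs were 4 fibroblast, 3 neutrophil, 3 parietal and 4 thick limb and distal markers. Below in both were 1, 1, 1 and 4, in that order. *Mcam*, *Mpeg1*, *Lcn2*, *Kap*, *Hao2*, *Ttc36*, *Trpv5* and *Slc12a1* also stand in the gene list that the study drew from these same samples. Their calls are therefore not independent evidence. The part of these marker differences in the changes of the protease and inhibitor genes was not tested.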

How the data were processed

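Total glomerular RNA was measured on 4 arrays, 2 for each group. The authors deposited log2 signals per probe set, and the processing notes name RMA and limma without versions. The array type in the methods differs from the one these identifiers belong to, and the title speaks of microRNA. Raw intensities were not analysed here. Of 41345 probe sets, 23521 had 1 symbol, 1820 several and 16004 none; the first gave 22180 genes.

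Arrays of equal number were paired, because the design text gives 2 independent experiments and the study lists a value for each batch. As a check, departures from the group mean had a correlation of 0.694 over genes between arrays of one number. Z-ratios followed the study's limit. Changes came from limma 3.58.1 in R 4.3.3 with 1 residual degree of freedom and 2.24 prior ones, adjusted by Benjamini-Hochberg over all genes. The number of arrays limits the precision. Scripts were tested on simulated data, and figures were drawn with matplotlib 3.10.9.

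Named genes were those beyond the limit in a pair, all TIMPs, *Mmp2*, *Mmp9*, *Mmp14*, *Adamts1*, *Adamts4*, *Adamts5*, *Adamts13* and *Adamtsl4*, and called genes of the related lists. Genes, groups and lists were chosen with earlier results of these data known. Alternatives were quantile normalization, median centring, a robust scale, a stricter limit, Z scores over all probe sets, the mean of a gene's probe sets, no low signals, no pairing, the methods' t-test, and leaving out a pair or array.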

Additional observations from a re-analysis of the deposited data

Results flagged for a closer look

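The change differed in sign between pair 1 and pair 2 for 3 named genes. The arrays of pair 1 are labelled male and those of pair 2 female, but *Xist* goes against these labels. *Adamts4* had 0.64 in pair 1 and -0.14 in pair 2, *Timp3* had -0.070 and 0.087, and *Timp4* had 0.10 and -0.082. For *Timp3* and *Timp4* these changes were smaller in size than the SE of the mean change (0.11 for each). Each pair holds 1 *Gak*-KO array and 1 control array, so the difference between the pairs was not tested.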

How the results depend on the processing

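*Adamtsl4* was called higher under every Z-ratio setting run, and no family gene was called lower under any. The count of family genes called higher was 1, 2 with a robust scale (adding *Mmp14*), 7 with no pairing block (adding *Adamts1*, *Adamts5*, *Adamts12*, *Mmp2*, *Mmp14* and *Timp2*), and 4 to 5 with 1 pair left out. With no block, a single Z-ratio from the averages of each group was used, and with a pair left out, the other pair alone. Both settings drop the rule that each pair must pass, so their higher counts cannot be read as an effect of pairing. Over all genes, 113 were called higher and 52 lower. These counts were 240 and 151 with a robust scale, 48 and 11 with a stricter limit, 32 and 9 when Z scores used all probe sets, and 649 and 551 with no replicate block. With 1 pair left out they were 640 to 667 and 530 to 656. The methods' t-test left 1 gene after Benjamini-Hochberg adjustment, against 0 in limma, and 0 of the family. At an unadjusted 0.05 it held 444 genes and 1 of the family, and limma without the block 176 and 2. The mean change of *Timp3* was -0.051 with quantile normalization and -0.017 with median centring, and -0.34 to 0.36 with an array or a pair left out. That of *Timp4* was -0.015 with median centring and -0.091 to 0.113 with an array or a pair left out. In the same way, that of *Adamts4* ranged over -0.17 to 0.67, negative without pair 1 and without control 1, and that of *Adamts12* over -0.13 to 0.97, negative without control 1. With an array or a pair left out, the mean change ran over 0.28 to 1.44 for *Adamts1*, 0.15 to 0.68 for *Adamts5*, 0.034 to 0.635 for *Adamts8*, 0.00 to 0.25 for *Adamts13*, 0.16 to 0.89 for *Mmp2*, 0.00 to 0.47 for *Mmp9*, 0.010 to 0.162 for *Timp1* and 0.024 to 1.06 for *Timp2*, against 0.80 to 0.996 for *Adamtsl4* and 0.39 to 0.705 for *Mmp14*. The lowest values came without control 1 for *Adamts5* and *Mmp2*, without *Gak*-KO 2 for *Adamts8*, *Adamtsl4*, *Mmp14* and *Timp2*, without pair 1 for *Adamts1*, *Adamts13* and *Mmp9*, and without control 2 for *Timp1*. The cause was not tested. Fits without 1 array compare arrays of different number and assume that a lone array varies like the other group.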

Other observations

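Further probe sets of family genes were read beside the ones described. A second *Mmp11* probe set read 4.15 and 4.24 in *Gak*-KO against 4.21 and 4.24 in control, and a second *Mmp7* probe set read 2.95 and 2.91 in *Gak*-KO against 3.02 and 2.86 in control. A second *Adamts14* probe set read 3.71 and 3.89 in *Gak*-KO against 3.95 and 3.87 in control. The changes of the 49 genes in pair 1 and pair 2 had a Pearson correlation of 0.424, given as a description, since the genes share the same 4 arrays and are not independent.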
